A study of Mus musculus with 12 samples.

Results

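Resident peritoneal macrophages of C57BL/6 mice were cultured for 24 h in DMEM buffered with HEPES, and some then received lipopolysaccharide (LPS) at 10 ng/ml for 2 h while others stayed untreated. The response described here is the difference between 3 untreated HEPES libraries (numbered 4, 5 and 6) and 3 HEPES libraries with LPS (numbered 10, 11 and 12), 6 of the 12 RNA-seq libraries of the study. The other 6 came from the same cells in MOPS medium, 3 untreated and 3 with LPS. The design text names pH 6.8 and 7.4 and then MOPS and HEPES, so pH 7.4 goes with HEPES by word order alone. The labels give no genetic change, age or sex, and they do not say whether libraries of a group came from separate mice or cultures, so p-values reflect only how these libraries vary, which may be technical. All genes with enough counts were members, 14506 of the 54532 in the deposited table.

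LPS is the outer membrane glycolipid of Gram-negative bacteria. Macrophages bind it through Cd14 and the Tlr4 receptor complex, which signals through the adaptor Myd88 to NF-kappaB and MAP kinases, and through a separate adaptor to IRF factors and type I interferon. Early target genes encode cytokines and chemokines that recruit and activate other cells, together with inhibitors that limit the same pathway.

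With LPS, 5168 genes were higher (35.6% of those tested) and 5982 were lower (41.2%), at a Benjamini-Hochberg adjusted p under 0.05 in the edgeR quasi-likelihood test. At least a 2-fold change was reached by 2010 higher genes (13.9%) and 2862 lower genes (19.7%), and at least a 4-fold change by 813 (5.6%) and 971 (6.69%). The largest changes were rises: 101 genes rose at least 64-fold and 9 fell as much. The median called gene changed 1.83-fold. Of the 813 genes up at least 4-fold, 387 (47.6%) had a mean under 1 CPM (counts relative to the TMM-scaled library size) without LPS. The share was 17.1% of all tested genes and 27.4% of genes down at least 4-fold. Genes low without LPS can enter the test through groups where they are higher. With LPS, 68 of the 813 passed 1000 CPM, as did 155 of all tested genes. These 813 genes held 3.68 to 3.81% of all counts in the untreated libraries and 25 to 25.5% in the LPS libraries. The balance of rises and falls depended on scaling: with TMM factors, used throughout, 46.3% of called genes were higher, with upper-quartile factors 38.3%, and with total counts alone, which lowered the median gene by 0.585 on the log2 scale, 20.6%. Rises smaller than that shift turned into falls with total counts alone, and the counts under that scaling are given beside gene groups whose majority turned. Counts of higher and lower genes in the groups below stand against the shares of 35.6% and 41.2% of all tested genes.

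**Figure D1:**
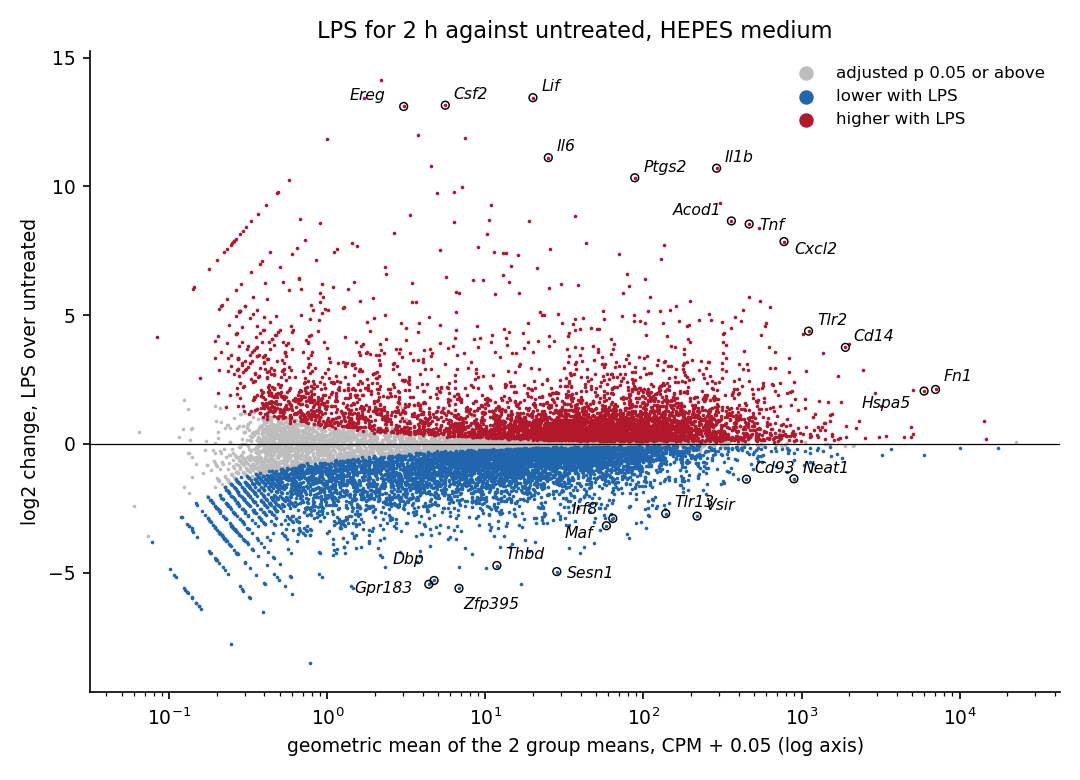
Each point is 1 of 14506 tested genes, with its log2 change with LPS in HEPES medium on the vertical axis and its abundance in CPM on a log axis. Red genes (5168) were higher and blue genes (5982) lower at an adjusted p under 0.05, and circled genes are named in the text. The points farthest from 0 lie above it.

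The 6 libraries held 22433773 to 24669239 counts, with a biological coefficient of variation of 4.62% over all groups. A principal component that split untreated from LPS libraries carried 90.9% of the variance of the 6 libraries, and the next, with 2.88%, spread the LPS libraries, with library 10 at one end and 12 at the other. CPM values did not overlap between the groups in 78.4% of tested genes. Of 10 macrophage markers, all were tested, 4 were higher and 4 lower with LPS, and with total counts alone 1 was higher and 9 lower. The TMM shares of 40.0% each were near those of all tested genes (35.6% and 41.2%). Levels ranged widely, with 1569.9 ± 19.3 CPM (SD, n = 3) of the endosomal marker Cd68 without LPS and 1440.3 ± 14.2 CPM with it, and 30.3 ± 4.64 CPM of the IgG receptor gene Fcgr1 without LPS and 4.87 ± 1.16 CPM with it. Few markers of some other cells were detected: 2 of 10 T and NK cell markers and 2 of 8 neutrophil markers had enough counts to be tested, and S100a8, with the most counts of these, reached 13.6 ± 0.548 CPM with LPS. Of 11 B cell markers, 10 were tested and all 10 were lower with LPS, with a median log2 change of -2.07 and group means of up to 52.9 CPM. In bulk RNA, fewer B cells and less RNA per B cell cannot be told apart, and the part of these cells in other falls was not tested.

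The receptor for LPS itself did not pass the test. Tlr4 stood at 61.3, 60.5 and 56.7 CPM without LPS and 58.2, 66.5 and 61.2 CPM with it, a log2 change of 0.06 ± 0.052 (SE, edgeR adjusted p = 0.301), and the groups overlapped. Without library 10 the change was 0.15 and passed the test, and with total counts alone it was -0.53. Its partner Cd14, which hands LPS to the receptor, was at 493, 528 and 531 CPM untreated and 7311, 6816 and 6703 CPM with LPS, a log2 rise of 3.75 ± 0.058 (adjusted p = 1.72e-22) with wide separation of the groups. Of the 9 Toll-like receptors tested, 2 were higher and 6 were lower, with a median log2 change of -0.98 against -0.08 for all genes tested. Tlr2, the receptor for bacterial lipoproteins, went from 240.2, 259 and 231 CPM to 5197, 5024 and 4927 CPM, a 20.8-fold rise (log2 4.38 ± 0.057, adjusted p = 8.31e-26). Tlr13, which senses bacterial ribosomal RNA, moved the other way, from 359, 354 and 348 CPM to 47.2, 58.5 and 56.5 CPM (log2 -2.71 ± 0.067, adjusted p = 4.14e-17). The Tlr2 partners Tlr6 and Tlr1 fell by 1.95 and 0.98, and Tlr3, which senses RNA duplexes, fell by 1.08 on the log2 scale.

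Downstream of the receptor, 13 of 22 co-receptors, adaptors and kinases were higher and 6 were lower. The adaptor gene Myd88 rose by 2.12 ± 0.051 on the log2 scale. Irak2, a kinase that prolongs signalling, rose by 1.91 ± 0.039, and Irak3, which encodes the inhibitory IRAK-M, by 2.74 ± 0.052. Ripk2, the kinase of the NOD receptors, rose by 2.59 ± 0.049, and Map3k8, which encodes the TPL2 kinase upstream of ERK, by 1.82 ± 0.054. Among the 6 that fell were Irak4, the kinase that starts the cascade (log2 -0.66 ± 0.055), Tab1, a regulator of the TAK1 kinase (-1.60 ± 0.11), and Cd180, a receptor related to Tlr4 on macrophages and B cells (-1.45 ± 0.074). Myd88, Irak3 and Irak4 each overlap a gene on the other strand, so their values are uncertain.

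Every member of the NF-kappaB list was higher: 15 of 15 subunits, inhibitors and kinases, with a median log2 change of 2.23 and a range of 0.38 to 5.05. Nfkbia, which encodes the IkappaB-alpha that holds NF-kappaB in the cytoplasm, was at 69.0, 82.1 and 75.3 CPM untreated and 1771, 1667 and 1684 CPM with LPS (log2 4.50 ± 0.053, adjusted p = 1.32e-31). Nfkbiz, which encodes a nuclear cofactor for secondary targets such as Il6, rose from 45.3 ± 1.01 to 1499 ± 11.2 CPM (log2 5.05 ± 0.044), Nfkbie from 29.3 ± 2.05 to 301 ± 3.39 CPM (log2 3.36 ± 0.052) and the subunit gene Nfkb1 from 169 ± 4.91 to 2286 ± 60.7 CPM (log2 3.76 ± 0.046). Groups did not overlap for any of these 4 genes, nor did they in 78.4% of all tested genes. With total counts alone, 14 of the 15 were still higher and 1 was lower.

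Of the ubiquitin regulators of the same pathway, 16 of 18 were higher and 2 lower, with a median log2 change of 1.82. Tnfaip3, which encodes the A20 enzyme that shuts the pathway down, was at 112, 126 and 123 CPM untreated and 2965, 2759.8 and 2794 CPM with LPS (log2 4.56 ± 0.051, adjusted p = 1.02e-33). Its partner Tnip1 rose by 4.79 ± 0.055, the adaptor Traf1 by 5.03 ± 0.077 and Tank, a scaffold for the kinases of the interferon arm, by 2.03 ± 0.045. The 2 that fell encode enzymes that trim ubiquitin chains, Cyld (log2 -0.33 ± 0.048) and Otulin (-0.23 ± 0.061), the latter with an overlapping gene.

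Promoter sequences of some genes that rose are shown, picked because they hold a match to the NF-kappaB consensus upstream of their start. Most promoters of genes up at least 4-fold held no such match. Some named genes that fell, such as Tlr3, Cyld and Irf2, also held one. Windows come from the RefSeq promoter table of build GRCm38.p6, are read on the gene's strand, and have every match to the NF-kappaB (kappaB) consensus in capitals, on either strand.
Nfkbia, chr12 minus strand, chr12:55492652-55492691: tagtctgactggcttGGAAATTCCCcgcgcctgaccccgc
Tnip1, chr11 minus strand, chr11:54962972-54963013: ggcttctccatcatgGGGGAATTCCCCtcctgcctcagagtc
Tlr2, chr3 minus strand, chr3:83841756-83841796: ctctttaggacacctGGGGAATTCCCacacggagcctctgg
Cxcl1, chr5 plus strand, chr5:90891159-90891199: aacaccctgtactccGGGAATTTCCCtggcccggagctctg
Cxcl2, chr5 plus strand, chr5:90903787-90903827: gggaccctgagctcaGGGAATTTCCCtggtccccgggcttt
Cxcl10, chr5 minus strand, chr5:92348968-92349063: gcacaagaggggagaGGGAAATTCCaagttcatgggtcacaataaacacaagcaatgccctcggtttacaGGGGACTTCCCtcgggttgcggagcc
Il6, chr5 plus strand, chr5:30013055-30013094: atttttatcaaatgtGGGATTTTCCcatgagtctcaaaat
The match began 29 bases before the start of Nfkbia and 44 bases before that of Il6. In Tnip1, Tlr2, Cxcl1 and Cxcl2 the capital stretch held 2 or 3 overlapping matches, and Cxcl10 held a separate match at 159 bases and an overlapping pair at 104 and 103 bases before its start. The chemokine neighbours Cxcl1 and Cxcl2 carried the same stretch of 11 capital letters.

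Over 300-base windows (250 bases before to 50 after the start), 18.6% of the promoters of genes up at least 4-fold held a kappaB match (98 of 528, Wilson 95% interval 15.5 to 22.1%). The share was 8.75% among genes down at least 4-fold (53 of 606, 6.75 to 11.3%), 10.3% among all tested genes with a promoter (10156 of 14506) and 8.46% among all 32851 promoters of the table. The AP-1 consensus, TGANTCA, was in 10.8%, 4.79%, 5.0% and 7.81% of the same sets, and in 14.9% of the 168 promoters of genes up at least 16-fold. The core of the interferon-stimulated response element (ISRE), GAAANNGAAA, was in 5.11%, 3.47%, 3.14% and 3.44%. The CRE consensus, TGACGTCA, was in 2.84%, 1.98%, 3.24% and 1.79%, and the serum response CArG box in 1.7%, 1.16%, 1.27% and 1.63%. Both strands were searched, no pair of motifs was kept apart where they overlap, and a match is a run of letters and not a measured binding site.

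**Figure D2:**
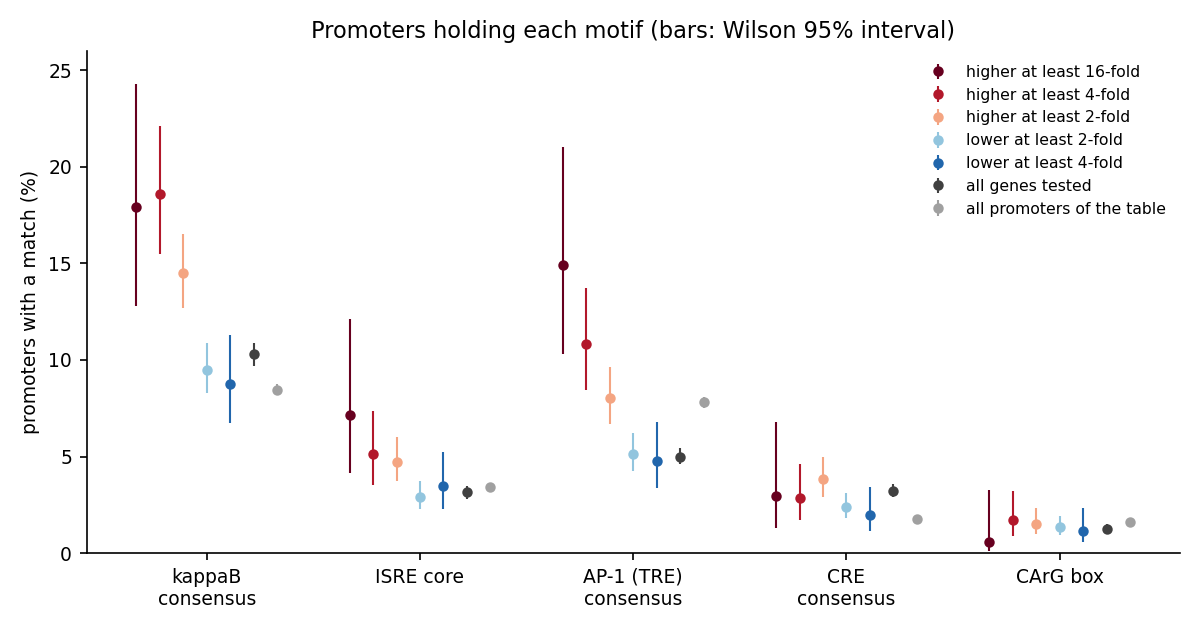
Points give the percentage of 300-base promoters that hold each of 5 motifs on either strand, for genes grouped by their change with LPS, for all tested genes and for all promoters of the table. Bars are Wilson 95% intervals. For the kappaB consensus, genes up at least 4-fold sit at 18.6% and genes down at least 4-fold at 8.75%.

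Cytokine genes rose from widely different untreated levels to high counts. Tnf, the founding member of its superfamily, was at 22.5, 25.5 and 24.7 CPM in the untreated libraries and 8281, 9324 and 9311 CPM with LPS, a 371-fold rise (log2 8.53 ± 0.091, adjusted p = 2.82e-19). Il1b, which encodes the pyrogen IL-1 beta, was at 5.37, 9.85 and 6.05 CPM and then 11688, 12057 and 11687 CPM (log2 10.70 ± 0.22, adjusted p = 8.14e-11). A noncoding gene on the opposite strand, Il1bos, overlaps Il1b and rose by 8.89, and without a stated strand setting the reads of this pair cannot be told apart. Il6, which drives fever and the acute phase, was at 0.135, 1.05 and 0.332 CPM and then 1028, 1245 and 1107 CPM (log2 11.11 ± 0.23, adjusted p = 6.76e-11). No LPS library overlapped an untreated one for these 3 genes, which also held for 78.4% of all tested genes. For genes named among the largest rises it was a condition.

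The TNF superfamily was split by more than its founding member: 10 of 20 ligands and receptors were higher and 10 lower. Among ligands, Tnfsf9, which encodes the costimulator 4-1BBL, rose by 7.80 ± 0.071 and Tnfsf15, which encodes TL1A, by 5.67 ± 0.23, whereas Tnfsf12 and Tnfsf13 fell by 1.09 and 0.94. The last pair share a read-through gene in the annotation, so their reads may mix. Of the receptors for TNF, Tnfrsf1b (TNFR2) rose from 691 ± 13.9 to 4237 ± 109.6 CPM and Tnfrsf1a (TNFR1) fell from 191 ± 3.26 to 147 ± 2.99 CPM, a small change that keeps its sign under each scaling tried. In the IL-1 family and inflammasome list, 14 of 18 were higher and 3 lower. Il1a rose by 8.37 ± 0.071 and the sensor Nlrp3 by 4.71 ± 0.047, and the inflammasome adaptor Pycard fell by 1.31, with the protease Casp1 at -0.38 and the cytokine Il18, which an opposite gene overlaps, at 1.28.

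In the IL-6, IL-12 and IL-10 families, 16 of 18 tested members were higher and 2 lower, with a median log2 change of 4.53. Lif, an IL-6 relative, was at 0.236, 0.140 and 0.111 CPM untreated and 1867, 1937 and 1843 CPM with LPS (log2 13.44 ± 0.21, adjusted p = 1.41e-12). Il23a, which encodes the IL-23 subunit p19, had 3 counts in all untreated libraries together and 9158 with LPS, a ratio of 4730 (exact 95% counting interval 1620 to 22900). Il12b, the subunit shared by IL-12 and IL-23, was at 0.101, 0.0349 and 0.295 CPM and then 119, 137 and 118 CPM (log2 9.74 ± 0.22). The anti-inflammatory Il10 was at 0.473, 0.699 and 1.14 CPM and then 25.7, 23.1 and 21.7 CPM (log2 4.94 ± 0.28), and Il19 of its family went from 0 counts to 258, at least 133-fold higher when 3 counts are allowed for the untreated group. The 2 that fell encode chains of the IL-6 receptor, Il6ra (log2 -0.93 ± 0.045) and the shared chain Il6st (-0.12 ± 0.042). The small fall of Il6st lost its call without library 5, 11 or 12 (log2 -0.091, -0.052 and -0.068).

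**Figure D3:**
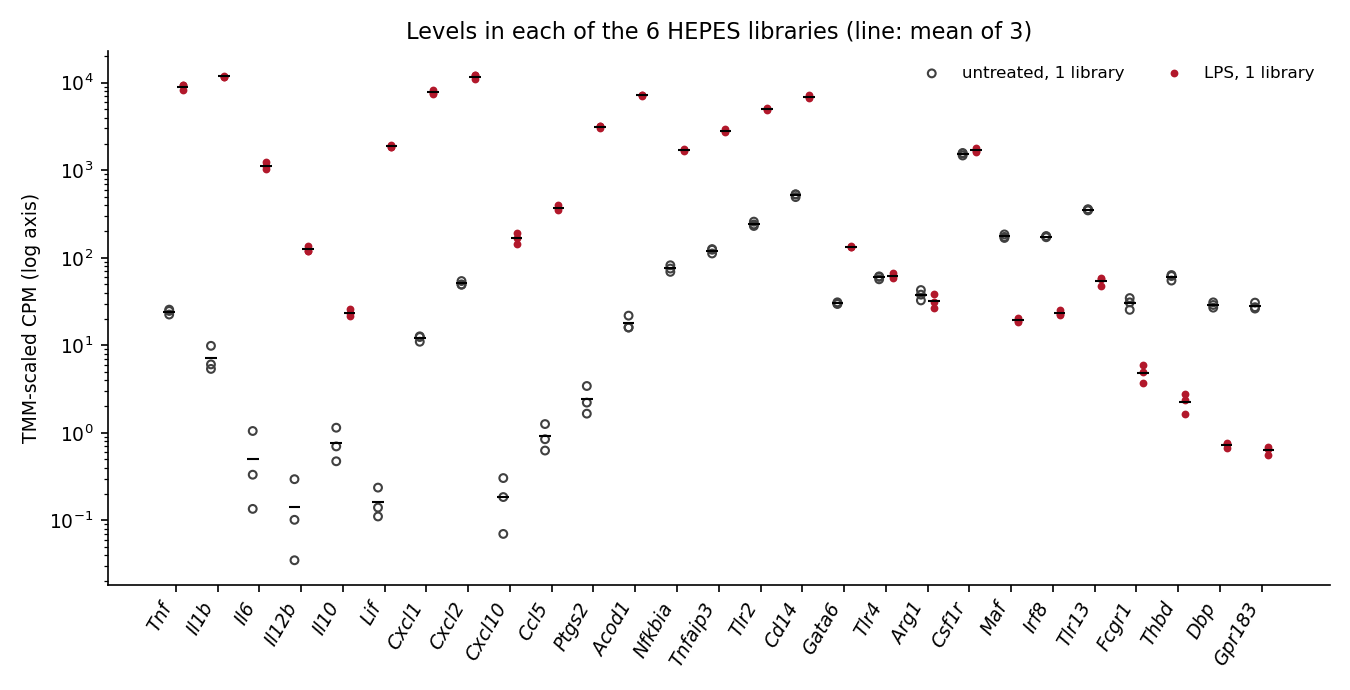
Each open circle is 1 untreated HEPES library and each filled circle 1 HEPES library with LPS, in TMM-scaled CPM on a log axis, with a line at the mean of 3. From Tnf to Gata6 all LPS libraries lie above the untreated ones, the groups overlap for Tlr4 and Arg1, and from Maf to Gpr183 all LPS libraries lie below.

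Chemokine genes were raised as well. Of 10 CC chemokines 9 were higher and 1 lower (median log2 change 4.56), and of 12 CXC chemokines 10 were higher and 1 lower (median 2.13). The neutrophil attractant Cxcl1 was at 11, 12.6 and 12.4 CPM untreated and 7521, 8194 and 7679 CPM with LPS (log2 9.34 ± 0.075, adjusted p = 3.37e-30), and Cxcl2 was at 49.2, 49.6 and 54.2 CPM and then 10947, 12123 and 12252 CPM (log2 7.85 ± 0.11, adjusted p = 1.6e-14). These are the genes whose promoters shared a kappaB stretch above. They lie side by side on chromosome 5 with Cxcl3, named here for its place, which rose by 8.85 ± 0.32. Cxcl10, an interferon-linked attractant of T cells, was at 0.304, 0.0699 and 0.184 CPM and then 193, 169.5 and 144 CPM (log2 9.77 ± 0.21, adjusted p = 4.57e-13). All LPS values of these chemokines lay above all untreated ones, and groups did not overlap in 78.4% of all tested genes.

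Among CC chemokines, Ccl5 rose from 0.910 ± 0.321 to 373 ± 23.8 CPM (log2 8.66 ± 0.12), Ccl3 from 80.2 ± 4.12 to 2157 ± 159 CPM (log2 4.75 ± 0.061) and the monocyte attractant Ccl2 from 19.9 ± 1.94 to 521 ± 39.7 CPM (log2 4.71 ± 0.079). The stromal chemokine gene Cxcl12 was the CXC member that fell (log2 -1.65 ± 0.14). Receptors were mixed, with 8 of 15 higher and 4 lower, against 7 and 7 with total counts alone. Fpr1, the receptor for bacterial formyl peptides, rose by 4.70 ± 0.20 and C5ar1, the receptor for complement C5a, by 2.26 ± 0.064. Cxcr4 fell by 1.37.

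Per length of transcript, in the authors' deposited FPKM, the LPS means (SD, n = 3) were 5678 ± 332 for Cxcl2, 4147 ± 178 for Cxcl1, 5459 ± 349 for Tnf, 6177 ± 102 for Il1b and 463 ± 43.9 for Il6. On this scale Il1b was highest, Cxcl2 and Tnf did not differ beyond the spread of 3 libraries, Cxcl1 lay below both, and Il6 was lowest. The untreated means were 24.0 ± 1.34, 6.25 ± 0.484, 14.4 ± 0.973, 3.63 ± 1.24 and 0.203 ± 0.193 FPKM in the same order.

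Many cytokine messages carry AU-rich elements, which proteins of the tristetraprolin family bind to shorten their life, and the Regnase ribonucleases cut some of the same messages. The densest such sites of 3 induced genes are shown, as 27 bases of the 3' untranslated region in build GRCm38 with the nonamer TTATTTATT in capitals, including overlapping copies.
Tnf, chr17 minus strand, chr17:35199681-35199707: TTATTTATTATTTATTTATTATTTATT
Csf2, chr11 minus strand, chr11:54247321-54247347: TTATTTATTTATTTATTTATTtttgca
Cxcl2, chr5 plus strand, chr5:90905346-90905372: TTATTTATTTATTaattccattgccca
Tnf held 5 nonamers in its region of 764 bases, Csf2 held 4 in 317 and Cxcl2 held 4 in 734. A nonamer was present in 9.63% of 644 regions of genes up at least 4-fold (Wilson 95% interval 7.58 to 12.2%), in 13.6% of 199 up at least 16-fold (9.49 to 19.0%), in 7.39% of 677 down at least 4-fold (5.65 to 9.61%) and in 7.38% of all 12033. Per 10 kb of sequence there were 1.08, 1.86, 0.56 and 0.662 nonamers in these sets. Of 13 genes for cytokine mRNA decay or stability, 10 were higher and 3 lower. Zc3h12a, which encodes the ribonuclease Regnase-1, rose from 32 ± 2.54 to 867 ± 39.0 CPM (log2 4.76 ± 0.054), and its relative Zc3h12c by 2.80. The tristetraprolin relatives Zfp36l1 and Zfp36l2 fell by 1.41 and 1.42, and Tia1, which encodes a translational silencer, by 1.86.

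Growth factor genes held several of the largest rises, and 16 of 17 in the list were higher with 1 lower. Csf2, which encodes GM-CSF, had 3 counts in all untreated libraries and 20274 with LPS (ratio 10500, exact 95% counting interval 3580 to 50700), and its LPS libraries stood at 351, 386 and 365 CPM. The neutrophil factor Csf3 was at 0.101, 0.0349 and 0.111 CPM untreated and 175, 146 and 145 CPM with LPS (log2 10.80 ± 0.38). Ereg, an EGF receptor ligand, had 1 count untreated and 8270 with LPS (ratio 12800, interval 2300 to 506000), and its neighbour on chromosome 5, the ligand Areg, went from 0.101, 0 and 0.184 CPM to 378, 390.1 and 359 CPM (log2 11.89 ± 0.27). The platelet-derived growth factors Pdgfb and Pdgfa rose by 4.08 ± 0.057 and 3.01 ± 0.061. On the receptor side, the beta chain gene Csf2rb rose by 1.78 ± 0.045 while Csf3r, the receptor for the Csf3 product, fell by 0.75, and Csf1r, the receptor that maintains macrophages, was at 1534 ± 53.0 CPM untreated and 1682 ± 81.8 CPM with LPS, a log2 change of 0.13 that turned to -0.45 with total counts alone and -0.017 with upper-quartile factors. Pdgfa overlaps a gene on the other strand.

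Several genes with no counts before LPS encode surface or matrix proteins. Plet1, a surface glycoprotein of epithelial progenitors, had 0 counts in the untreated libraries and 5314 with LPS, at least 2740-fold higher against a floor of 3 counts over the group. Has1, a hyaluronan synthase, went from 0 to 3229 counts (at least 1670-fold) and Sele, which encodes E-selectin, from 0 to 1091 (at least 563-fold). In all, 25 of the 5168 genes called higher had 0 counts in every untreated HEPES library. Such a gene can only rise and passes the count filter only through other groups, so its direction was set in advance. In the list of adhesion, coagulation and tissue factors to which Sele belongs, 20 of 24 were higher and 4 lower, with a median of 1.84. Icam1, a ligand of leukocyte integrins, rose from 50.5 ± 4.14 to 1411 ± 32.1 CPM (log2 4.80 ± 0.062), and Vcam1 by 6.50 ± 0.15. Thbd, which encodes the anticoagulant thrombomodulin and was on no list, was at 63.5, 61.9 and 54.9 CPM untreated and 2.78, 1.65 and 2.39 CPM with LPS (log2 -4.72 ± 0.17, adjusted p = 3.33e-12).

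Inhibitors of cytokine receptors and of MAP kinases were mostly higher. Of 18 MAP kinase phosphatase and SOCS genes, 13 were higher and 3 lower, with a median of 3.00. Cish, an inhibitor of STAT5 signalling, rose from 1.83 ± 0.222 to 351 ± 13.1 CPM (log2 7.58 ± 0.078), Socs1 by 4.62 ± 0.14 and Socs2 by 4.07 ± 0.11. The phosphatases Dusp4 and Dusp16 rose by 4.01 ± 0.075 and 3.87 ± 0.059, and Dusp3 fell by 1.05.

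Enzymes that make small signalling molecules changed unevenly. Ptgs2, the inducible cyclooxygenase COX-2, was at 1.65, 3.42 and 2.21 CPM untreated and 3176, 3164 and 3048 CPM with LPS (log2 10.33 ± 0.21, adjusted p = 6.72e-11), and Ptges, the inducible prostaglandin E synthase that follows it, rose by 5.21 ± 0.12. Of the 17 prostaglandin and leukotriene genes, 7 were higher (41.2%) and 10 lower (58.8%), against 35.6% and 41.2% of all tested genes. Of the falls, 3 reached 2-fold, and the list median was -0.11, against -0.08 for all tested genes. Among the genes that fell were the constitutive Ptgs1 (log2 -1.14 ± 0.081), the prostaglandin D synthase Hpgds (-1.55 ± 0.074), and Lta4h, which makes leukotriene B4 (-0.58 ± 0.051). In the list of itaconate, nitric oxide, arginine and tetrahydrobiopterin genes, 13 of 17 were higher and 2 lower. Acod1, which makes itaconate from a citric acid cycle intermediate, was at 16, 21.8 and 15.9 CPM and then 7226, 7308 and 7128 CPM (log2 8.65 ± 0.15, adjusted p = 7.21e-12). Nos2, the inducible nitric oxide synthase, was at 0, 0.140 and 0.0737 CPM and then 18.9, 18 and 14 CPM (log2 7.81 ± 0.34), Gch1, which makes its cofactor, rose by 2.72 ± 0.055, and the arginine transporter Slc7a2 by 5.18 ± 0.052. Arg1, a marker of alternative activation, was at 37.9, 42.8 and 32.6 CPM and then 38.2, 31.4 and 26.9 CPM with overlapping groups (log2 -0.23 ± 0.16, adjusted p = 0.206).

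Interferon-stimulated genes were mostly higher, while the interferon gene itself was barely detected. Ifnb1 had 0 counts untreated and 9, 8 and 11 counts in the LPS libraries, too few to be tested. Of 29 interferon-stimulated genes, 22 were higher and 1 lower (median 1.98), and with total counts alone 17 were higher and 7 lower. Ch25h, which makes the antiviral oxysterol 25-hydroxycholesterol, was at 0.236, 0.280 and 0.0737 CPM and then 223, 207 and 193 CPM (log2 9.99 ± 0.13), Isg15, a ubiquitin-like modifier, at 2.73, 3.14 and 3.36 CPM and then 207, 206 and 194 CPM (log2 6.04 ± 0.073), and Ifit1, which binds viral RNA, rose by 5.88 ± 0.14. Of the factors, the kinase gene Jak2 rose from 72.0 ± 3.22 to 1437 ± 78.8 CPM (log2 4.32 ± 0.049) and Irf1 by 1.66 ± 0.048, while Irf2 fell by 1.44. Both chains of the interferon receptor rose, Ifnar1 by 1.18 ± 0.035 and Ifnar2 by 1.49 ± 0.044.

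Of 28 immediate-early transcription factors, 21 were higher and 3 lower (median 1.39). Maff, a small MAF factor, rose from 9.71 ± 1.36 to 557 ± 10.0 CPM (log2 5.84 ± 0.068), the nuclear receptor Nr4a3 by 4.99 ± 0.076 and Egr1 from 26.1 ± 3.15 to 131 ± 2.31 CPM (log2 2.33 ± 0.059). The 3 that were lower are classic AP-1 or stress genes: Fos was at 15.2, 17.6 and 15.9 CPM untreated and 8.33, 10.7 and 11.2 CPM with LPS (log2 -0.69 ± 0.094, adjusted p = 1.28e-07), Jun fell by 0.80 and Atf3 by 0.78. A single time of 2 h does not show what these genes did earlier.

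Of 22 macrophage lineage factors, 9 were lower (40.9%), 6 of them at least 4-fold, and 12 were higher (54.5%). Of all tested genes, 41.2% were lower, 6.69% at least 4-fold, and 35.6% were higher. The share that fell was thus near that of all tested genes. Maf, which keeps macrophages differentiated, was at 185, 168 and 173 CPM untreated and 20.7, 18.9 and 18.4 CPM with LPS (log2 -3.18 ± 0.056, adjusted p = 6.92e-30), and Irf8, a myeloid lineage factor, at 177, 172 and 175 CPM and then 25.3, 22.0 and 23 CPM (log2 -2.90 ± 0.052). Mef2c fell by 2.97 and Rxra, the shared partner of lipid-sensing nuclear receptors, by 2.15. The groups were fully apart for these 4 genes, as they were in 78.4% of all tested genes. Gata6, which specifies large peritoneal macrophages, went up, from 31.0, 30.2 and 29.6 CPM to 134, 135 and 132 CPM (log2 2.14 ± 0.055, adjusted p = 1.41e-25), and Runx1 rose by 1.44 ± 0.042 and Nfatc1 by 1.57 ± 0.046.

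Genes of large peritoneal macrophage identity were divided, with 14 of 25 higher (56.0%) and 10 lower (40.0%), against 11 and 14 with total counts alone. Of all tested genes, 35.6% were higher and 41.2% lower. F10, coagulation factor X, rose from 234 ± 13 to 1021 ± 14.4 CPM (log2 2.13 ± 0.043) and Prg4, which encodes lubricin, by 1.33 ± 0.042, with a gene overlapping Prg4. Naip1, a sensor of bacterial secretion needles, fell by 2.81 and Selp, P-selectin, by 1.14, also with an overlapping gene. Among uptake receptors, 10 of 23 were higher (43.5%) and 11 lower (47.8%), against 4 and 17 with total counts alone. Clec4e, which encodes the glycolipid receptor Mincle, rose from 399.8 ± 31.4 to 4627 ± 121 CPM (log2 3.53 ± 0.055), and Mertk and Fcgr1, receptors for apoptotic cells and for IgG, fell from 204 ± 10.3 to 63.2 ± 2.42 CPM and from 30.3 ± 4.64 to 4.87 ± 1.16 CPM (log2 -1.69 ± 0.049 and -2.64 ± 0.15). Costimulatory ligands rose in 9 of 13 cases and fell in 3. Cd40 rose by 4.19 ± 0.053, Cd80 by 3.31 ± 0.056 and Cd274, which encodes PD-L1, by 1.79 ± 0.048, and the inhibitory receptors Vsir (VISTA) and Cd200r1 fell by 2.81 and 2.77.

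Cell death genes moved both ways: in the BCL2 family list, 12 of 21 were higher and 7 lower, against 10 and 11 with total counts alone. Bcl2a1d, an anti-apoptotic A1 gene with near-identical copies next to it on chromosome 9, rose by 5.17 ± 0.056, and reads of these copies may be assigned to the wrong one. Cflar, which blocks caspase-8, rose from 244 ± 4.05 to 1886 ± 6.99 CPM (log2 2.95 ± 0.038) and the stress gene Gadd45b by 5.02 ± 0.055. Bbc3, which encodes the killer PUMA, fell by 1.70 and Bcl2 itself by 1.31, whereas Bcl2l11, which encodes the killer BIM, rose by 1.53. Bmf, another killer of that family outside the list, was at 12.6, 11.1 and 12.1 CPM and then 0.599, 0.905 and 0.445 CPM (log2 -4.18 ± 0.18).

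Ribosomal, mitochondrial and respiratory chain groups moved by small steps, and their direction rests on scaling. Of 26 cytosolic ribosomal protein genes, 25 were higher with TMM factors (median 0.21) and 0 were higher and 26 lower with total counts alone. Likewise 7 of 13 mitochondrially encoded genes were higher and 0 lower with TMM, against 0 higher and 10 lower with total counts. Nuclear respiratory chain genes went from 16 of 30 higher and 7 lower to 1 higher and 27 lower, and with upper-quartile factors to 6 higher and 11 lower. The proteasome was less affected: 24 of 24 subunits were higher with TMM (median 0.70), and 12 were higher and 6 lower with total counts. The 4 subunits past 2-fold included Psma6 (log2 1.21 ± 0.042) and Psmb6 (1.15 ± 0.039).

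Within glycolysis, 11 of 20 genes were higher and 8 lower, against 5 and 14 with total counts alone, and the genes up at least 2-fold were 5. The TMM shares of 55.0% higher and 40.0% lower compare with 35.6% and 41.2% of all tested genes. Hk2, the inducible hexokinase, rose from 50.3 ± 1.43 to 647 ± 38.1 CPM (log2 3.69 ± 0.060), the transporter Slc2a6 by 2.43 ± 0.047 and Slc16a3, which exports lactate, by 1.4 ± 0.062. In the citric acid cycle 7 of 21 were higher and 9 lower, near the background of 35.6% and 41.2%, and 2 were higher and 17 lower with total counts alone. Idh1, the cytosolic isocitrate dehydrogenase, fell from 320.1 ± 10.3 to 97.6 ± 5.71 CPM (log2 -1.71 ± 0.044) and Aco1 by 0.86, and Dld, a subunit of the pyruvate and oxoglutarate dehydrogenases, rose by 1.5 ± 0.044. Cholesterol synthesis was lower in 14 of 20 genes and higher in 4 (median -0.46), led by Dhcr7 (log2 -1.76 ± 0.077), Lss (-1.69 ± 0.10) and Mvk (-1.48 ± 0.11). Lysosomal genes were lower in 21 of 30 and higher in 4, by small steps (median -0.20). Lipa, lysosomal acid lipase, fell from 1388 ± 32.5 to 783 ± 58.4 CPM (log2 -0.83 ± 0.043) and Ctsc, which activates serine proteases, rose by 1.36 ± 0.042. The cholesterol exporter Abca1 rose by 2.06 ± 0.049, and the desaturase Scd2 and the cholesterol esterifier Soat1 fell by 2.31 and 1.78.

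Cell cycle genes were lower in 12 of 22 cases (54.5%) and higher in 5 (22.7%). Of all tested genes, 41.2% were lower and 35.6% higher. Ccnd1, cyclin D1, fell by 2.15, with a gene on the other strand overlapping it, and the inhibitor Cdkn1a, p21, rose from 169.7 ± 9.36 to 1231 ± 13.5 CPM (log2 2.86 ± 0.042). Mki67, a proliferation marker, rose from 24.1 ± 2.40 to 452 ± 16.8 CPM (log2 4.23 ± 0.067), while the replication factor Mcm2 fell by 1.24. Among chromatin modifiers 13 of 29 were higher (44.8%) and 15 lower (51.7%), against 6 and 20 with total counts alone. Kdm6b, an H3K27 demethylase, rose from 18.2 ± 2.20 to 501 ± 4.92 CPM (log2 4.79 ± 0.062), and the DNA methyltransferase Dnmt1 and the dioxygenase Tet3 fell by 2.46 and 2.18. Of 20 purine and lipid receptors, 11 were higher (55.0%) and 7 lower (35.0%), against 8 and 10 with total counts alone. The adenosine receptor Adora2a rose by 4.47 ± 0.066 and the niacin receptor Hcar2 by 3.13 ± 0.057, and P2rx7, the ATP-gated channel that triggers the inflammasome, fell by 1.4.

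**Figure D4:**
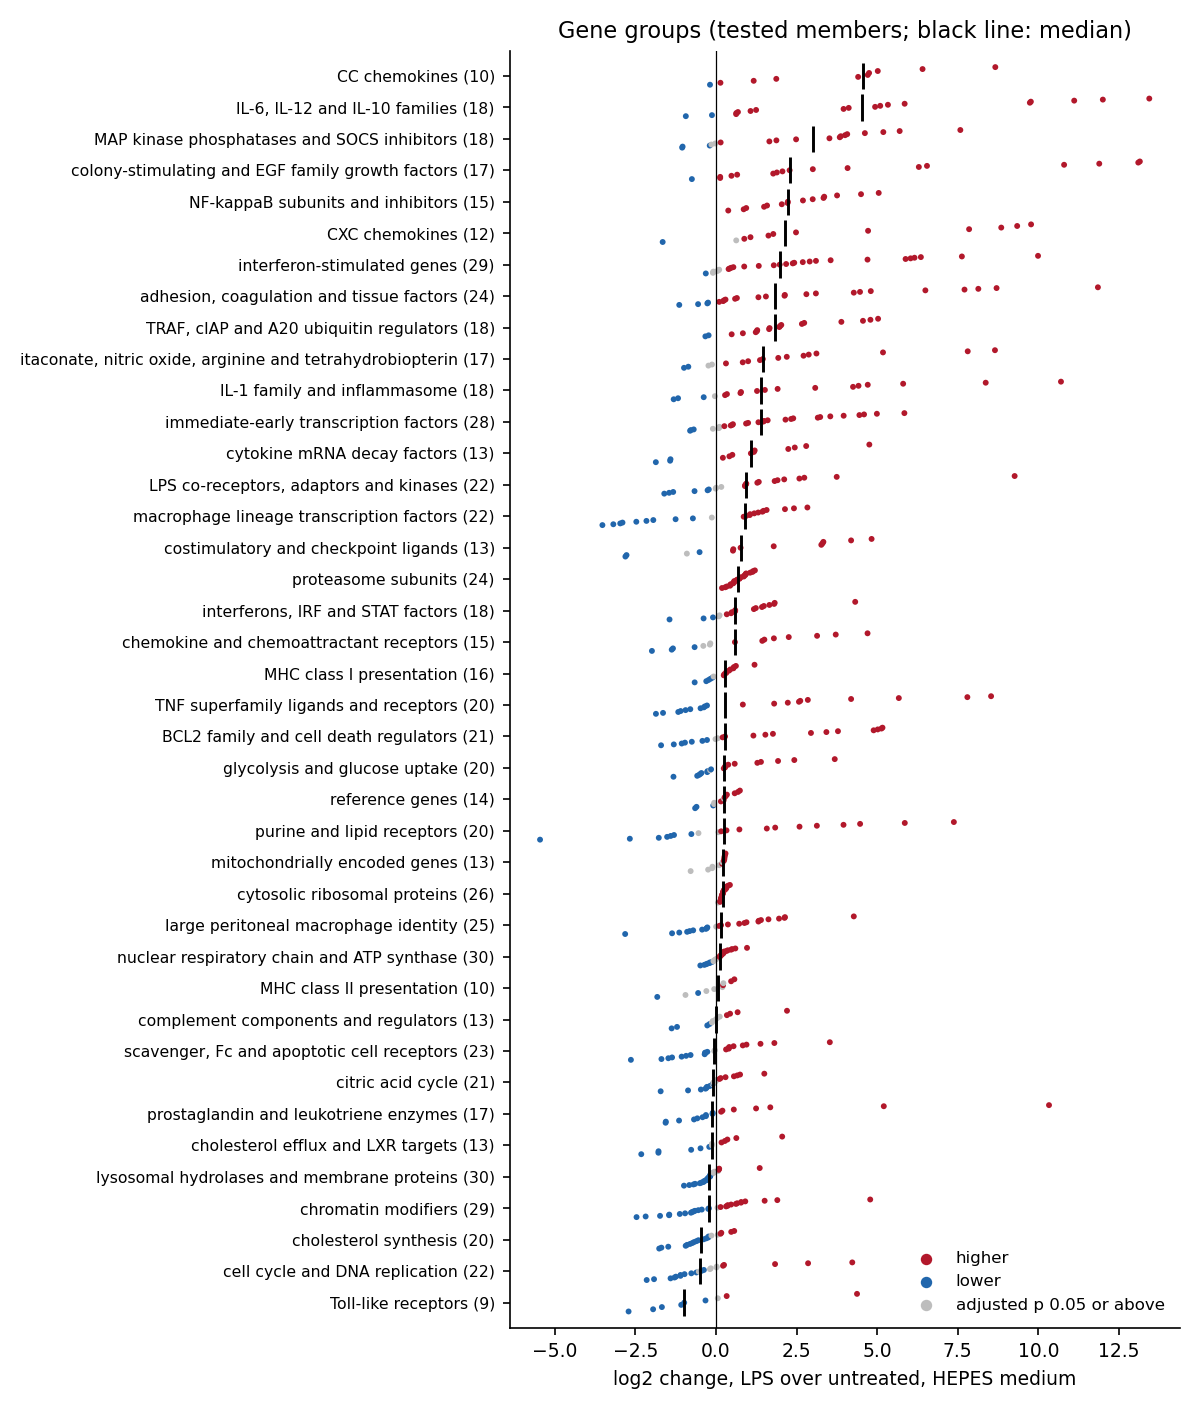
Each point is the log2 change with LPS of 1 tested member of a gene group, in red where higher, in blue where lower and in grey where the adjusted p was 0.05 or above. Points are spread vertically in order of value only to keep them apart, black lines are group medians, and numbers in brackets are tested members. Chemokines and the IL-6, IL-12 and IL-10 families have medians above 2, and Toll-like receptors have the lowest median, -0.98.

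Several of the deepest falls were of genes with varied roles. Gpr183, in the list of purine and lipid receptors, encodes the receptor for an oxysterol made from the Ch25h product. It was at 26.3, 27.2 and 30.7 CPM untreated and 0.653, 0.692 and 0.556 CPM with LPS (log2 -5.45 ± 0.16, adjusted p = 1.48e-23). The gene lies within Ubac2 on the other strand, so its reads are uncertain without a strand setting. Dbp, a clock output factor, was at 30.9, 26.9 and 28.9 CPM and then 0.762, 0.745 and 0.667 CPM (log2 -5.31 ± 0.12), with a gene overlapping it. Zfp395 was at 47.8, 44.1 and 47.2 CPM and then 0.490, 0.851 and 1.5 CPM (log2 -5.61 ± 0.13, adjusted p = 1.41e-26), the largest fall of a protein-coding gene past 10 CPM. Sesn1, a stress gene that restrains mTORC1, went from 156, 154 and 162 CPM to 5.01, 4.84 and 5.28 CPM (log2 -4.96 ± 0.062). The groups did not overlap for these 4 genes, but that was a condition for being named among the largest falls. It held in 78.4% of all tested genes. Fam78a also overlaps another gene. Engase, Tifab, Armc2, Fam78a, Fgd4 and Themis2 fell by 5.44, 4.81, 4.78, 4.37, 4.26 and 4.17 on the log2 scale.

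Among genes up at least 4-fold, the 10 most counted with LPS were not all cytokines. Fn1, which encodes fibronectin, went from 3391 ± 144 to 14645 ± 601 CPM (log2 2.11 ± 0.046), Hspa5, the endoplasmic reticulum chaperone BiP, from 2932 ± 69.7 to 12134 ± 508 CPM (log2 2.05 ± 0.038), and Plek, which encodes pleckstrin, from 2468 ± 43.0 to 10468 ± 155 CPM (log2 2.08 ± 0.036). With Il1b, Cxcl2, Il1a, Tnf, Cxcl1, Tnfaip2 and Acod1 these 10 genes held 1.12 to 1.16% of all counts without LPS and 8.08 to 8.28% with it. Of the genes down at least 2-fold, Neat1, the noncoding RNA that builds paraspeckles, had the most counts, and went from 1433 ± 145 to 559 ± 25.2 CPM (log2 -1.36 ± 0.11). The surface receptors Cd93 and Cd84 fell by 1.37 and 1.53, the integrin Itga6 by 1.36, and Hgsnat, a lysosomal acetyltransferase, by 1.10.

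Noncoding genes took part. Mir155hg, the host of the microRNA miR-155, was at 0.304, 0.280 and 0.295 CPM and then 119, 122 and 112 CPM (log2 8.63 ± 0.11). The other large rises, Gm12223 and Gm26584, overlap Csf2 and Slc7a2, and Gm11748 among the large falls overlaps Engase, so their reads may belong to those genes. Gm10384 had 293 counts untreated and 3 with LPS, a ratio of 63.1 in favour of untreated cells (exact 95% counting interval 21.4 to 308).

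Of all tested genes, 3356 did not pass the test. With TMM factors, the 95% interval of the change lay within 1.25-fold either way in 1586 genes, called or not. How many of these were not called was not counted. The intervals leave out the choice of scaling: total counts alone shifted the median gene by -0.585 on the log2 scale, more than a 1.25-fold change. Reference genes were not flat. Of 14, 8 were higher and 3 lower, against 2 higher and 11 lower with total counts alone. Among them were Ywhaz (log2 0.69 ± 0.036) and Polr2a (-0.60 ± 0.039), while Hprt and Tbp stood at -0.06 ± 0.041 and -0.05 ± 0.064, and were called lower with total counts alone (-0.64 for each).

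Whether the response was particular to HEPES medium was tested as the difference between the LPS change in HEPES and that in MOPS, which come from separate controls. Across 14506 genes the log2 changes in both media were correlated (Pearson r 0.903, Spearman rho 0.876), as a description over genes that are not independent. Of the 813 genes up at least 4-fold in HEPES, 784 were also called higher in MOPS (34.1% of all genes were) and 0 were called lower. Of the 971 down at least 4-fold, 850 were called lower in MOPS (34.9% of all genes were) and 1 higher. The sizes differed more: by the interaction test, 342 of the 813 had a larger rise in HEPES and 43 a smaller one, and 473 of the 971 had a deeper fall in HEPES and 2 a shallower one. Over all genes, 2546 (17.6%) had a larger log2 change in HEPES and 3173 (21.9%) a smaller, more negative one. Since the 813 and 971 were chosen on the HEPES change, a lean towards HEPES in these counts is partly set by that choice.

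Ptgs2 had a log2 rise of 10.33 in HEPES and 7.64 in MOPS (difference 2.69 ± 0.32, adjusted p = 0.000157), and Gata6 by 2.14 and 0.39 (difference 1.75 ± 0.079, adjusted p = 8.68e-17). Penk, which encodes an opioid peptide precursor, was at 0.574, 0.489 and 0.590 CPM untreated and 15.2, 13.6 and 14.2 CPM with LPS in HEPES (log2 4.69 ± 0.19), against a change of 1.41 ± 0.18 in MOPS. Tnf was one of the fixed genes with the smaller rise in HEPES, 8.53 against 9.36 (difference -0.82 ± 0.11, adjusted p = 4.67e-05). On the falling side, Gpr183 fell by 5.45 in HEPES and its change in MOPS was -2.90 ± 0.13, and Thbd fell by 4.72 in HEPES against -2.30 ± 0.15 in MOPS. Tent5c, which encodes a poly(A) polymerase, had opposite signs, -1.91 ± 0.17 in HEPES and 0.69 ± 0.15 in MOPS (difference adjusted p = 2.03e-05). Il1b, Il6 and Cxcl10 did not pass the test of the difference, with adjusted p-values of 0.549, 0.553 and 0.574 and differences of 0.29 ± 0.33, -0.93 ± 1.08 and -0.82 ± 1.03.

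**Figure D5:**
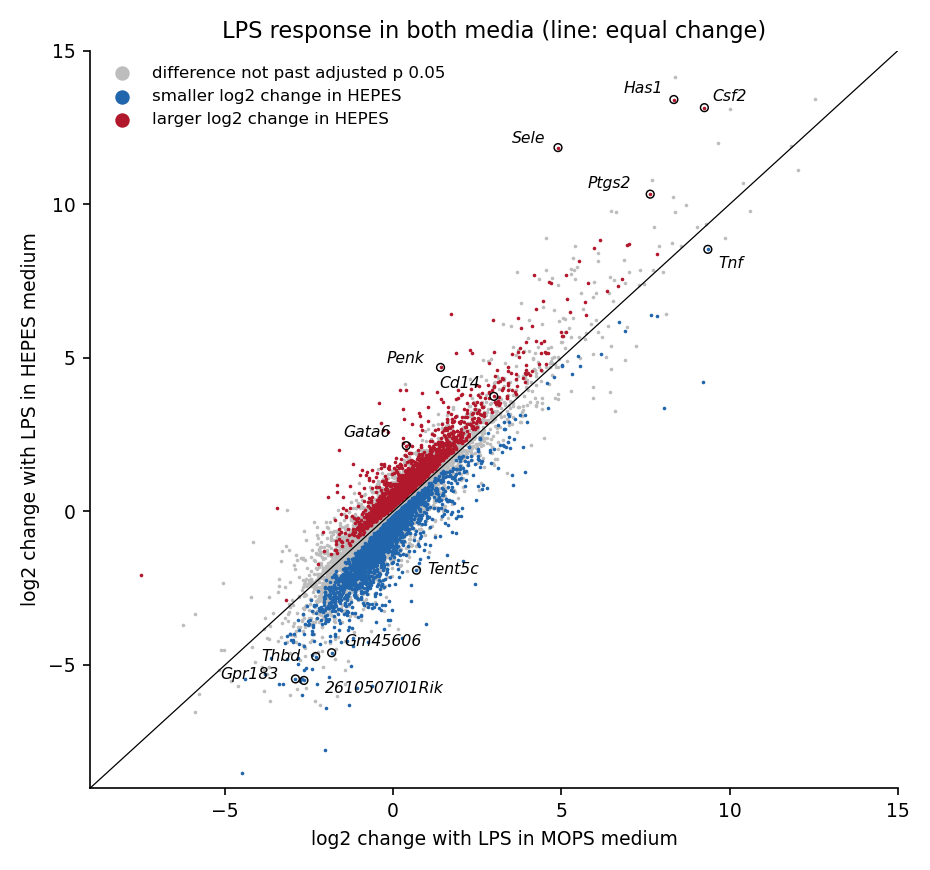
Each point is 1 tested gene, with its log2 change with LPS in MOPS medium across and in HEPES medium up, and the line marks equal change. Genes in red (2546) or blue (3173) differed between the media at an adjusted p under 0.05, and circled genes are named. Most genes lie along the line, and Penk, Ptgs2 and Gata6 lie above it.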

How the data were processed

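RNA was measured by RNA-seq in 12 libraries of mouse resident peritoneal macrophages, 3 per group, and the 6 in HEPES medium are described here. Per the submitters' processing notes, build mm10 and the tools HISAT2 2.0.5, featureCounts 1.5.0-p3 and CASAVA 1.8 were used. How strand was set, which annotation release served and what test the authors ran is not given in the sources used here. Per the file headers, each gene has a raw count and an FPKM value for every library in 1 deposited table. FPKM values were made by the authors and were used only to compare levels between genes. That table also carries the authors' own comparison, with log2 fold changes and p-values: of the 10015 tested genes they called, 9933 passed here with the same sign and 0 with the other.

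The counts went through edgeR 4.0.16 (R 4.3.3). Low genes were dropped by filterByExpr, libraries were scaled by TMM factors (1.19 to 1.21 untreated, 0.8 to 0.801 with LPS), and a means model of all 4 groups was fitted with robust quasi-likelihood dispersion and 8 residual degrees of freedom. The threshold was a Benjamini-Hochberg adjusted p under 0.05. Each standard error is the absolute log2 change over the square root of the F statistic, so it is approximate for genes near 0 counts. CPM values are TMM-scaled, not corrected for length, and compared only within a gene. Libraries of a group differed by more than counting error (chi-square over its degrees of freedom 3 to 5.59, genes of 20 or more counts), and each was counted as 1 sample.

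Genes named are the 14 largest rises and falls among protein-coding genes past 10 CPM with non-overlapping groups, the 10 most counted among strong rises and falls, up to 5 members per direction of each list by smallest p, the 4 largest rises and falls of other genes, the 5 largest differences between media in each direction, 20 set genes, reference genes, and list members that missed the threshold where they are the list's own receptor, enzyme or cytokine. Some of these are not reported here, and genes outside the rule are the neighbours in gene runs and the partners of overlapping genes, chosen after their values were seen. The groups, lists and genes were chosen with earlier results of these data known. Folds over a group at 0 use a floor of 3 counts for that group, and folds over 1 to 3 counts are ratios whose exact interval covers counting error only. Promoters were matched by symbol and strand for 70.0% of tested genes, and 96.0% of the 14492 tested genes found in GENCODE vM21 had the same coordinates there. Of 406 genes the rule names, 42 overlap another gene that holds at least 10% of their counts, 37 of them on the opposite strand. Alternatives were other scalings, filters, DESeq2 1.42.0, limma 3.58.1 (voom), the HEPES libraries alone and leaving out each library.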

Additional observations from a re-analysis of the deposited data

Results flagged for a closer look

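These genes, chosen as the 20 set genes and the largest differences, had an LPS change in HEPES that differed from that in MOPS by the interaction test of edgeR (adjusted p under 0.05); each value is the log2 change in HEPES minus that in MOPS with its standard error. Larger in HEPES were Sele (6.95 ± 2.60), Has1 (5.07 ± 1.55), Csf2 (3.90 ± 1.23), Penk (3.28 ± 0.29), Ptgs2 (2.69 ± 0.32) and Gata6 (1.75 ± 0.079). The differences were under 1 for Cd14 (0.75 ± 0.074), Nfkbia (0.48 ± 0.068), Tnfaip3 (0.45 ± 0.064) and Tlr4 (0.32 ± 0.078). Tlr4 did not pass the test in HEPES (log2 0.06), and its change in MOPS was -0.26. Smaller in HEPES were the rises of Tnf (-0.82 ± 0.11) and Csf1r (-0.24 ± 0.054).

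Deeper falls in HEPES were found for Thbd (-2.42 ± 0.27), Gpr183 (-2.55 ± 0.27), Gm45606 (-2.77 ± 0.23) and 2610507I01Rik (-2.85 ± 0.41), the first 3 of these with values in MOPS of -2.30, -2.90 and -1.83. Gm45606 lies opposite Slc43a2, which holds most of the reads there. Tent5c (-2.61 ± 0.23) fell in HEPES and rose in MOPS. For Sele, Has1 and Csf2 the untreated libraries held 0 to 3 counts per group in HEPES, so their differences rest on very few counts: without MOPS library 2 the difference of Sele was 5.21 and lost its call, without library 1 or 3 that of Has1 was 4.36 or 4.87 and lost its call, and without library 2 or 3 that of Csf2 was 3.98 or 2.94 and lost its call.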

How the results depend on the processing

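Of 206 genes named, 199 kept their direction and their side of the threshold for the HEPES comparison under all 9 other analyses and 6 sets without 1 library. The exceptions were Tlr4, Csf1r, Il6st, Cd68, Arg1, Hprt and Tbp, all with changes under 0.24 on the log2 scale. With total counts alone, 2502 genes were higher and 9666 lower, and 1131 and 5320 at least 2-fold; Tlr4 turned to -0.53 and Csf1r to -0.45, and Arg1 passed the test at -0.82. With upper-quartile factors Csf1r was -0.017. The other scalings, filters and tools gave 4331 to 5413 higher and 5529 to 6965 lower genes. Leaving out 1 library of the comparison at a time gave 5050 to 5301 higher and 5511 to 5867 lower genes, and 2050 to 2146 and 2720 to 2923 at least 2-fold. The counts from all libraries, 5982 lower genes and 2010 higher at least 2-fold, lie outside these ranges. For the difference between media, leaving out 1 of 12 libraries gave 2332 to 2938 genes with a larger log2 change in HEPES and 2509 to 3000 with a smaller one. The count of 3173 smaller changes from all libraries lies above that range. At 2-fold in place of 4-fold, 14.5% of the promoters of higher genes held a kappaB match and 8.02% an AP-1 match. Cd68 lost its small fall without library 10, 11 or 12 (-0.072, -0.087 and -0.081). No paired analysis was possible because the library numbers 4 to 6 and 10 to 12 share no number between the groups. Genes with few counts in one group have the least certain folds, and counts without molecular identifiers give intervals for counting error only.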

Other observations

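The authors' deposited table also places genes in transcription factor families, whose shares stand against 35.6% of all tested genes higher and 41.2% lower. Of 420 tested zinc finger genes of the C2H2 family, 107 were higher and 223 lower with LPS, with a median log2 change of -0.43 against -0.08 for all tested genes, and 31.4% were lower at least 2-fold against 19.7% of all tested genes. In the Rel homology family, which holds the NF-kappaB and NFAT subunits, 7 of 10 were higher (median 1.76), and in the bZIP family 25 of 44 were higher and 13 lower (median 0.27). Nuclear receptors of the table's THR-like family were lower in 7 of 14 cases and higher in 4. ETS factors were higher in 11 of 19 cases and lower in 7.

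Genes raised at least 4-fold lay beside each other in several places of the genome. A run of 3 chemokine genes on chromosome 5 (Cxcl3, Cxcl1 and Cxcl2) rose by 7.85 to 9.34 on the log2 scale, and a run of 3 EGF ligand genes a short way along it (Epgn, Ereg and Areg) by 4.52 to 13.10. On chromosome 17 the immune receptor genes Trem1, Trem3 and Treml4 formed a run (2.48 to 9.26), as did Has1 with Spaca6 and the formyl peptide receptor genes Fpr1 and Fpr2 (3.72 to 13.41). The interferon-inducible Ifi211, Ifi203, Ifi202b and Ifi205 on chromosome 1 stood in a run of 5 with an olfactory receptor gene (3.96 to 8.91). These runs were picked after their values were seen, members of such families can share reads, and no test was made of how often runs arise.

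Untested members include Il11 with 0 counts untreated and 12, 10 and 14 with LPS, Cxcl9 with 2, 1 and 0 counts and then 11, 5 and 5, and Lta with 1, 0 and 0 and then 12, 8 and 11. Ccl8, Ccl20 and Ifna4 had 0 counts in all 6 libraries.

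Of 16 MHC class I presentation genes, 10 were higher and 5 lower (median log2 change 0.29), of 10 class II genes 3 were higher and 2 lower (0.07), and of 13 complement genes 4 were higher and 4 lower (-0.01), against 35.6% of all tested genes higher and 41.2% lower. With total counts alone the counts were 1 higher and 11 lower, 0 and 8, and 1 and 9. Among markers of other peritoneal cells, 4 of 9 tested genes of dendritic cells and small peritoneal macrophages were higher and 3 lower (3 and 5 with total counts alone), 2 of 6 of eosinophils and mast cells were higher and 0 lower (1 and 2), and 2 of 7 of mesothelial, stromal and endothelial cells were higher and 0 lower.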
